A study of Mus musculus with 11 samples.

Results

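The 45 genes described here are broadly expressed genes of mouse chromosome 8, measured in induced pluripotent stem cells, embryonic stem cells and their source cells. They were taken from a list of 46 gene symbols, matched to the array's probe annotation, and were 45 of the 18193 genes measured in all. The other listed gene, Nutf2, was not analysed here. Where a gene had several probe sets, the brightest one by its 11-array mean was used. The genes were chosen by their place on chromosome 8, after that chromosome had read high in 1 array, TiPSC 3, to ask how far each gene follows it. The TiPSC 3 levels selected the question, so they are given as a description, with no test.

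Total RNA was hybridized to Affymetrix mouse expression arrays, and all values are log2 expression values, on which 1 unit is a doubling. The groups were induced cells made from tail tip fibroblasts (TiPSC, 3 arrays), induced cells made from ventricular myocytes (ViPSC, 3 arrays), embryonic stem cells (ESC, 3 arrays), and the 2 kinds of source cell, tail tip fibroblasts (TTF, 1 array) and ventricular myocytes (VM, 1 array). All carried a mixed C57/Bl and BlackSwiss background, and the source cells came from pups at postnatal day 1. All 9 pluripotent samples were kept on irradiated mouse embryonic fibroblast feeders in serum with LIF, and the feeders were depleted by letting them attach to uncoated dishes. The labels do not say that replicates were separate lines or cultures, so a p-value reflects only how far these samples vary among themselves, and a group may be 1 line.

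Pluripotency and cardiac marker levels matched the labels, while VM also read high for fibroblast and endothelial markers. The 8 pluripotency markers had a median level of 12.14 in TiPSC 3 and 12.22 to 12.75 in the other 8 pluripotent arrays, against 3.95 in TTF and 4.09 in VM. The 10 fibroblast and feeder markers had a median of 7.36 in TiPSC 3 and of 8.0 and 7.57 in TiPSC 1 and 2. Their median was 6.95 to 7.16 in ViPSC and 6.69 to 7.15 in ESC, against 13.96 in TTF and 11.54 in VM. The 8 cardiac markers were at a median of 3.75 to 3.98 in the 9 pluripotent arrays, against 14.25 in VM. The 5 endothelial markers were at 5.07 to 5.89 in the pluripotent arrays and 4.11 in TTF, against 10.91 in VM. The VM array thus did not read myocyte markers alone. The part of remaining feeder RNA in the results was not tested, and in bulk RNA fewer cells of a type and less RNA per cell cannot be told apart.

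A cell with an additional copy of a chromosome carries more template for every gene on it, and messenger RNA from most such genes is known to rise with copy number. For subunits of complexes the surplus protein is often degraded, while some genes are buffered at the level of RNA. Mouse pluripotent cells are known to gain chromosome 8 in culture. Copy number was not measured in these samples. A ratio of 3 copies to 2 is 0.585 on the log2 scale.

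The members lie between 10 and 123.4 Mb of chromosome 8 in the GRCm38.p6 gene table. None lies between 30 and 50 Mb or between 60 and 70 Mb. Their best-known shared tasks are DNA replication, transcription, protein turnover and mitochondrial function. Promoter sequences of 34 of the 45 were in the RefSeq table of that build. The 4 below are shown because they belong to Tfdp1, the member with the largest deviation in TiPSC 3, and to 3 genes of the replication group, the one with the smallest median deviation. Each is the stretch directly upstream of the annotated gene, all on the plus strand, and capitals mark words bound by E2F factors, the partners of the Tfdp1 protein. The words searched on both strands were TTTCGCGC, TTTGGCGC, TTTCCCGC and TTTGCCGC.
Mcm5, chr8:75109259-75109467: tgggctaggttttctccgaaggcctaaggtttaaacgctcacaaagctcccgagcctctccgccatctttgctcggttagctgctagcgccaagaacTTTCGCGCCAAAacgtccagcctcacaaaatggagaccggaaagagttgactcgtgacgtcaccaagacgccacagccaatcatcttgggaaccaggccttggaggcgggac
Gins3, chr8:95633309-95633558: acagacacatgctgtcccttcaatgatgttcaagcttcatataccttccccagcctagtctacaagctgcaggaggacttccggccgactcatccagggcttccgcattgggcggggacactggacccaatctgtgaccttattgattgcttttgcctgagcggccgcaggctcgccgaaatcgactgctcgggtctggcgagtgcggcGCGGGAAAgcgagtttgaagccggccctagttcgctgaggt
Tfdp1, chr8:13338501-13338724: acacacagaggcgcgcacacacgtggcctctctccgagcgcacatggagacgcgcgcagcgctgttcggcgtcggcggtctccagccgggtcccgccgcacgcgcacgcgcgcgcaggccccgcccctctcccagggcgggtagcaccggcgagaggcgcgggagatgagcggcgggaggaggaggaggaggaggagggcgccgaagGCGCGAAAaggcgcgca
Cdt1, chr8:122567765-122568014: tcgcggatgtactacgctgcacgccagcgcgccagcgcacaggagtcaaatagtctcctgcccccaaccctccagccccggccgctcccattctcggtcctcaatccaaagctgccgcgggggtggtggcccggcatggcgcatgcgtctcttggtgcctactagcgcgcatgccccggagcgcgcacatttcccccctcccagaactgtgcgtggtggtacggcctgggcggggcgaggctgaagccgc
In the 250 bases upstream of a start site, such a word was found in 4 of the 34 members (11.76%), Mcm5, Gins3, Tfdp1 and Polr2c, against 583 of 27025 genes in the table (2.16%). Mcm5 holds 2 words that overlap. Cdt1 holds none of these words in this window. Neither does Orc6, the other replication member with a promoter sequence, which is not shown. A word was thus found in 2 of the 4 replication members that have a sequence. All the searched words hold the bases CG. The median count of CG in this window was 22 over 41 promoters of the members, against 6 over all 32851 promoters. The part of CG content in the higher share of members was not tested. A match is a description, not a binding site.

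Deviations are differences from a gene's mean over the 9 pluripotent arrays, after centring on 6780 expressed autosomal genes outside chromosome 8. A gene was called expressed at a mean of at least 7. In TiPSC 3 the members had a median deviation of 0.43 log2 units, with quartiles at 0.28 and 0.53. Of the 45, 43 were above 0 (95.56%), against 51.72% of all expressed genes and 96.68% of expressed chromosome 8 genes. In the other 8 arrays the member median lay between -0.12 and 0.02. Against the mean of those 8 arrays the median member was 0.48 higher in TiPSC 3, a 1.39-fold difference. TiPSC 3 was the highest of the 9 arrays for 34 of the 45 members (75.56%), against 15.2% of all genes. A deviation over 0.25 was found in 36 members (80.0%), against 11.7% of all genes. These member shares come from the array that the list was built on, and nothing is read from them.

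**Figure D1:**
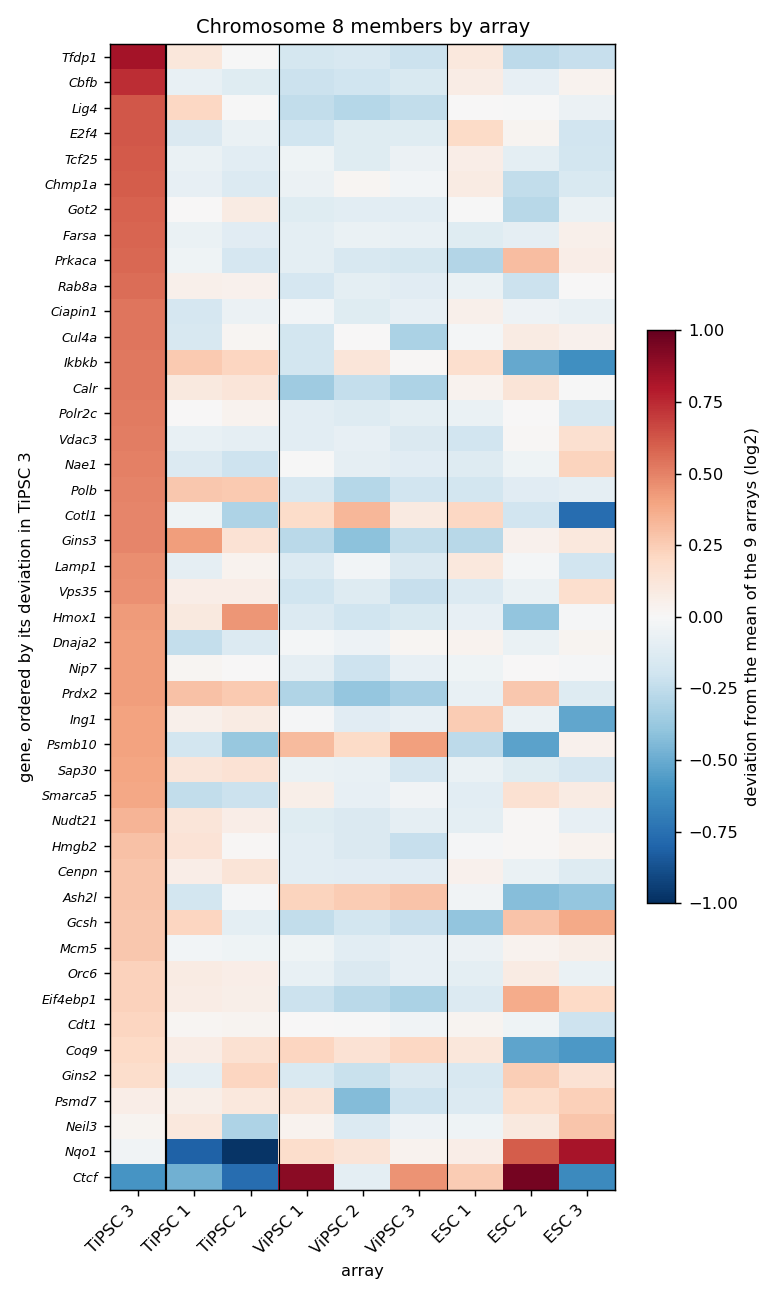
Deviation of each of the 45 members (rows) from its mean over the 9 pluripotent arrays (columns), in log2 units; red is higher and blue lower. TiPSC 3, the first column, is above 0 in 43 rows (95.56%), against 96.68% of expressed chromosome 8 genes. Nqo1 and Ctcf at the foot vary more between the other arrays than any other member.

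The members read much like the rest of their chromosome. The 422 expressed genes of chromosome 8 had a median of 0.47 in TiPSC 3, and the 381 of them that are not members had 0.47 as well. TiPSC 3 was the highest array for 348 of the 422 (82.46%) and for 316 of the 381 (82.94%), against 13.91% of expressed autosomal genes elsewhere. The median of the 17 autosomes other than 8 and 11 lay between -0.01 and 0.04 in TiPSC 3. Chromosome 11 was at -0.18 there and at 0.26 to 0.27 in ViPSC, and the X chromosome was at 0.65 and 0.64 in ESC 2 and ESC 3, so chromosomes other than 8 also stood apart in other arrays.

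**Figure D2:**
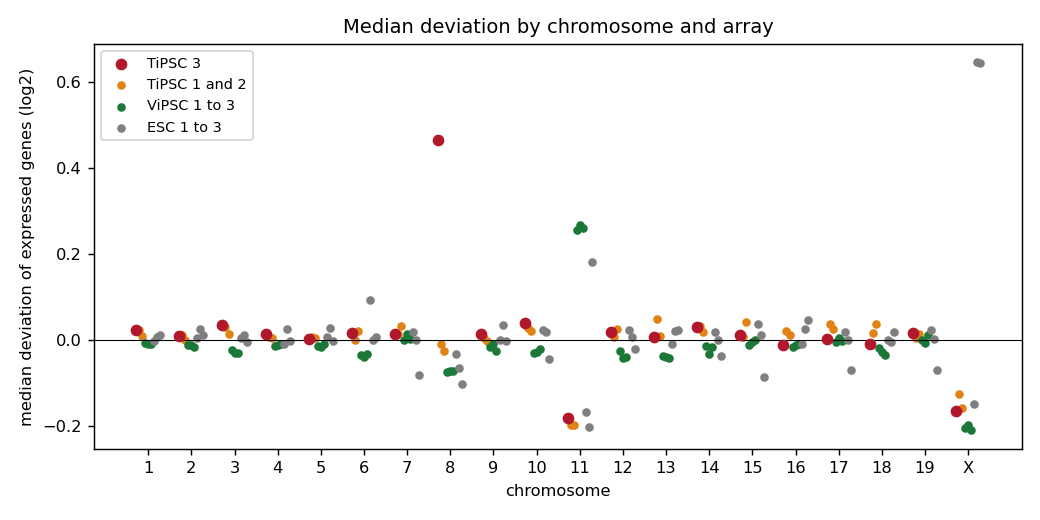
Median deviation of expressed genes (log2, vertical axis) for each chromosome (horizontal axis), with 1 point per pluripotent array. TiPSC 3 stands at 0.47 on chromosome 8, where the other 8 arrays lie between -0.10 and -0.01.

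The higher level in TiPSC 3 ran along the whole chromosome. In 13 consecutive stretches of 10 Mb the median of the expressed genes was 0.38 to 0.51 in TiPSC 3, and -0.20 to 0.09 in any of the other 8 arrays. The lowest of the 13 stretches held 8 genes, among them the members Hmgb2 and Sap30. Members next to each other did not all read alike: Ciapin1, an iron-sulfur assembly factor, was at 0.54 and its neighbour Coq9, a coenzyme Q synthesis protein, at 0.20.

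**Figure D3:**
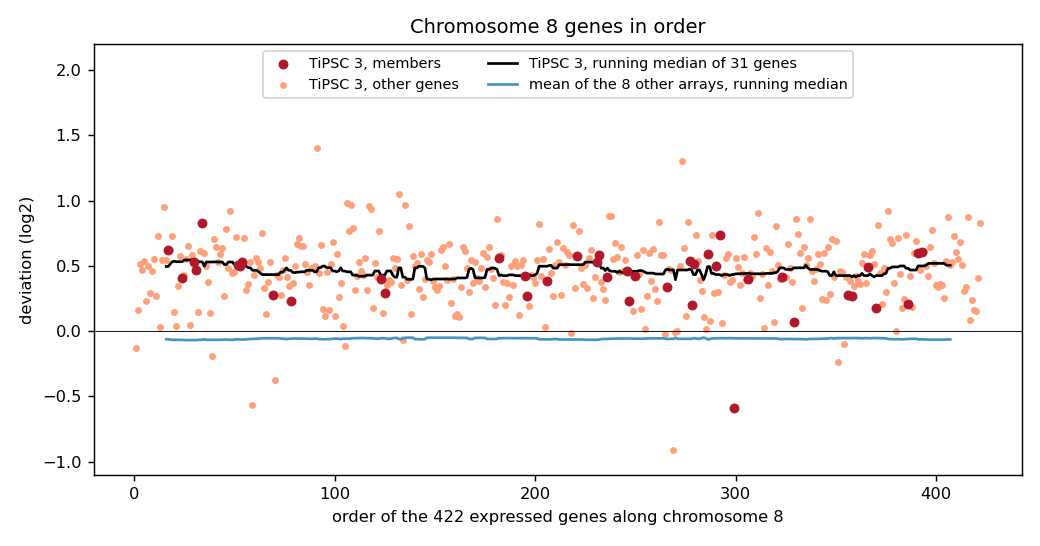
Deviation in TiPSC 3 (log2, vertical axis) of the 422 expressed chromosome 8 genes in their order along the chromosome, with the 41 expressed members in dark red. The running median stays well above 0 from end to end, while that of the mean of the other 8 arrays stays just under 0.

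Tfdp1 and Cbfb had the largest deviations in TiPSC 3, followed by Lig4 and E2f4, at 0.83, 0.74, 0.62 and 0.62. Tfdp1, the dimerization partner of E2F factors, read 11.65 in TiPSC 3, 10.97 and 10.83 in TiPSC 1 and 2, 10.64, 10.67 and 10.62 in ViPSC 1 to 3, and 10.94, 10.49 and 10.54 in ESC 1 to 3. Cbfb, the common subunit of the core binding factors, read 11.55 in TiPSC 3, 10.78 and 10.70 in TiPSC 1 and 2, 10.59, 10.62 and 10.67 in ViPSC, and 10.90, 10.66 and 10.79 in ESC. E2f4, an E2F that represses cell cycle genes with pocket proteins, read 6.78 in TiPSC 3, 6.06 and 6.12 in TiPSC 1 and 2, 5.96, 6.05 and 6.05 in ViPSC, and 6.37, 6.13 and 5.91 in ESC. In all of them TiPSC 3 was the highest array, and its centred deviation was 0.72 for Tfdp1, 0.66 for Cbfb and 0.43 for E2f4 above that of the next array. The fold over the mean of the other 8 arrays was 1.91 for Tfdp1 and 1.78 for Cbfb, the largest among the members. E2f4 was below the level called expressed.

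Of the other chromatin and transcription members, Tcf25, a protein linked to ribosome quality control and transcription, read 10.62 in TiPSC 3, 9.99 and 9.92 in TiPSC 1 and 2, 9.96, 9.90 and 9.96 in ViPSC, and 10.09, 9.85 and 9.77 in ESC. Polr2c, a subunit of RNA polymerase II, deviated by 0.52, and the histone deacetylase partners Ing1 and Sap30 by 0.41 and 0.40. Smarca5, the ISWI remodelling ATPase, was at 0.39, and Hmgb2, an abundant DNA-bending protein, at 0.29. Ash2l, a core subunit of the histone H3 lysine 4 methyltransferases, was at 0.28 in TiPSC 3 and at 0.22, 0.25 and 0.28 in ViPSC, so TiPSC 3 was not its highest array. The second Ash2l probe set, at a mean level of 7.64, was at -0.11 in TiPSC 3. The median of the 11 chromatin and transcription members was 0.41, and TiPSC 3 was the highest array for 9 of them, with Ash2l and Ctcf the exceptions.

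The 5 membrane traffic and cytoskeleton members all had their highest value in TiPSC 3, with a median of 0.49. Chmp1a, a subunit of the ESCRT-III membrane scission machinery, read 10.32 in TiPSC 3, 9.68 and 9.60 in TiPSC 1 and 2, 9.66, 9.75 and 9.70 in ViPSC, and 9.82, 9.41 and 9.51 in ESC. Rab8a, a small GTPase of exocytosis, read 9.46 in TiPSC 3, 8.99 and 8.96 in TiPSC 1 and 2, 8.72, 8.81 and 8.79 in ViPSC, and 8.84, 8.62 and 8.84 in ESC. TiPSC 3 was the highest array for both, with a centred deviation 0.52 above the next array for Chmp1a and 0.51 for Rab8a. Lamp1, a lysosomal membrane protein, Vps35, the core of the retromer coat, and Cotl1, an actin-binding protein, were at 0.47, 0.46 and 0.49. Cotl1 varied by itself, with 10.61 in TiPSC 3, 10.46 in ViPSC 2 and 9.30 in ESC 3.

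The 5 mitochondrial and iron-sulfur members, Ciapin1 among them, had a median of 0.51. Got2, the mitochondrial aspartate aminotransferase, read 12.04 in TiPSC 3, 11.49 and 11.54 in TiPSC 1 and 2, 11.32, 11.35 and 11.35 in ViPSC, and 11.46, 11.11 and 11.32 in ESC. Vdac3, an outer membrane channel, was at 0.51. Gcsh, the lipoyl carrier of glycine cleavage, was at 0.27 in TiPSC 3 and higher in ESC 2 and ESC 3, at 0.28 and 0.38. Coq9 read 8.50 in TiPSC 3, 8.41 and 8.47 in TiPSC 1 and 2, 8.51, 8.45 and 8.52 in ViPSC, and 8.43, 7.71 and 7.67 in ESC. For Coq9 the arrays that stood apart were thus not TiPSC 3 but ESC 2 and ESC 3, both below every other array.

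Protein folding and degradation members had a median of 0.46, and the 2 signalling kinases one of 0.55. Prkaca, the catalytic subunit of protein kinase A, read 9.15 in TiPSC 3, 8.57 and 8.42 in TiPSC 1 and 2, 8.47, 8.42 and 8.41 in ViPSC, and 8.30, 8.82 and 8.58 in ESC. Ikbkb, the IKK kinase of the NF-kB pathway, was at 0.53 in TiPSC 3 and at -0.51 and -0.61 in ESC 2 and ESC 3. Cul4a, a ubiquitin ligase scaffold, Calr, a chaperone of the endoplasmic reticulum, Nae1, of the NEDD8-activating enzyme, and Dnaja2, an Hsp70 co-chaperone, were at 0.53, 0.53, 0.50 and 0.42. Psmb10, an immunoproteasome subunit, was at 0.40 in TiPSC 3 but at 0.41 in ViPSC 3. Psmd7, a lid subunit of the proteasome, read 10.88 in TiPSC 3, 10.90 and 10.92 in TiPSC 1 and 2, 10.93, 10.38 and 10.61 in ViPSC, and 10.69, 10.92 and 10.99 in ESC. On this brightest probe set TiPSC 3 lay within the range of the other arrays for Psmd7. Its second probe set, at a mean level of 7.79, deviated by 0.35 in TiPSC 3, which was there the highest array.

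Among the RNA and translation members, with a median of 0.38, Farsa was the highest. Farsa, the alpha subunit of phenylalanyl-tRNA synthetase, read 10.23 in TiPSC 3, 9.62 and 9.55 in TiPSC 1 and 2, 9.55, 9.59 and 9.59 in ViPSC, and 9.54, 9.50 and 9.64 in ESC. Its other 8 arrays spanned only 0.17 log2 units. Nip7, a ribosome biogenesis factor, was at 0.42, and Nudt21, a subunit of the pre-mRNA cleavage factor, at 0.34. Eif4ebp1, the translation repressor that binds eIF4E, was at 0.23 in TiPSC 3 and at 0.37 in ESC 2.

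In the repair and centromere group, Lig4, the ligase of non-homologous end joining, read 8.03 in TiPSC 3, 7.65 and 7.42 in TiPSC 1 and 2, 7.15, 7.12 and 7.17 in ViPSC, and 7.42, 7.34 and 7.29 in ESC. Cenpn, a centromere protein that reads the CENP-A nucleosome, was at 0.28. Neil3, a DNA glycosylase, read 5.98 in TiPSC 3, 6.10 and 5.66 in TiPSC 1 and 2, 5.98, 5.82 and 5.91 in ViPSC, and 5.92, 5.98 and 6.17 in ESC. Neil3 was the dimmest of the members and showed no separation of TiPSC 3.

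The replication genes had the lowest median of the role groups, 0.23, although TiPSC 3 was still the highest array for 4 of the 5. Mcm5, a subunit of the MCM helicase, read 12.54 in TiPSC 3, 12.28 and 12.24 in TiPSC 1 and 2, 12.22, 12.17 and 12.20 in ViPSC, and 12.22, 12.23 and 12.27 in ESC. Cdt1, which loads that helicase, read 12.71 in TiPSC 3, 12.55 and 12.54 in TiPSC 1 and 2, 12.49, 12.50 and 12.47 in ViPSC, and 12.54, 12.39 and 12.23 in ESC. The difference in TiPSC 3 was thus small, but no other array reached it for either gene. Orc6, of the origin recognition complex, was at 0.23. Gins2, of the GINS complex that activates the helicase, read 9.0 in TiPSC 3, 8.77 and 9.06 in TiPSC 1 and 2, 8.66, 8.61 and 8.69 in ViPSC, and 8.68, 9.0 and 8.91 in ESC. TiPSC 2 and ESC 2 were at or above TiPSC 3 for Gins2. Gins3, of the same complex, was at 0.49 in TiPSC 3 and at 0.42 in TiPSC 1.

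The chromosome median of 0.47 fell between Gins3 and Lamp1. Just above it were Polb, Cotl1 and Gins3, at 0.50, 0.49 and 0.49, and just below it were Lamp1, Vps35 and Hmox1, at 0.47, 0.46 and 0.43. Within 0.1 of that median lay 21 of the 45 members. Hmox1, the haem-degrading heme oxygenase, read 9.53 in TiPSC 3, 9.25 and 9.57 in TiPSC 1 and 2, 8.92 to 8.97 in ViPSC and 8.65 to 9.05 in ESC, so TiPSC 2 was just above TiPSC 3.

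Brighter probe sets deviated less. The 6 members with a mean of at least 12 (Mcm5, Cdt1, Dnaja2, Eif4ebp1, Hmgb2 and Nudt21) had a median deviation of 0.28 in TiPSC 3, against 0.44 for the 12 members between 11 and 12, 0.50 for the 15 between 9 and 11, and 0.51 for the 12 below 9. Chromosome 8 genes that are not members ran the same way, at 0.18 for 6 genes, 0.43 for 26, 0.45 for 133 and 0.50 for 216. In 21 members a second probe set was also expressed, and it deviated more than the brightest one in 14 of them. Among the 6 with a brightest level of at least 12 it did so in 5, with Hmgb2 the exception. For Mcm5 the second probe set was at 0.53 where the brightest was at 0.27, and for Nudt21 it was at 0.76 where the brightest was at 0.34. Cdt1 was at 0.37 on its second probe set and at 0.21 on its brightest. Of the 5 replication genes, Mcm5 and Cdt1 are in this bright class, and Gins2, at a mean level of 8.82, was at 0.17 on both of its probe sets. The part of signal level in the low replication values was not tested.

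**Figure D4:**
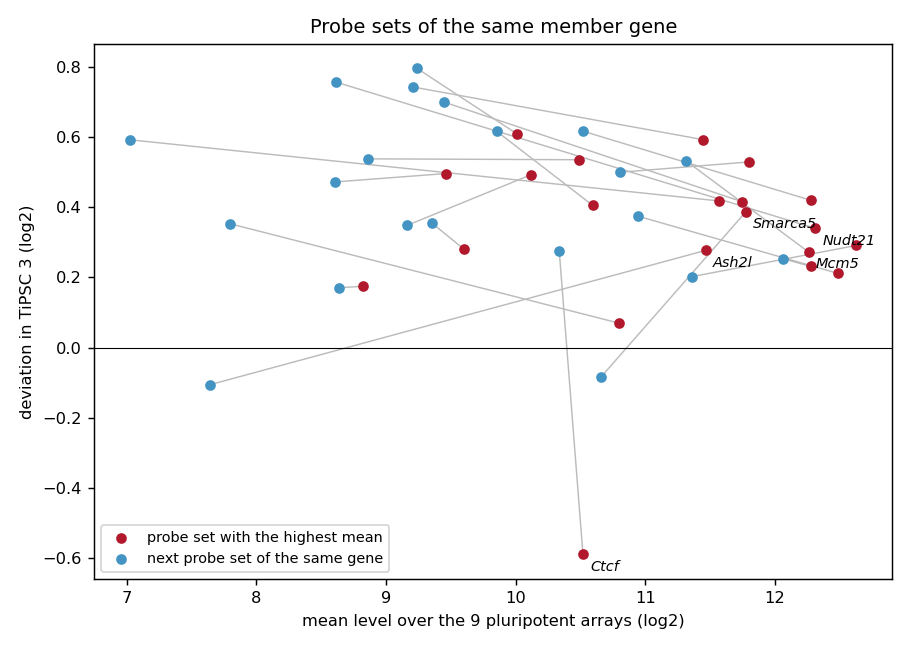
Deviation in TiPSC 3 (log2, vertical axis) against mean level (log2, horizontal axis) for the 21 members with 2 expressed probe sets; a grey line joins the brightest (red) and the next (blue) probe set of a gene. The next probe set lies higher in 14 of the 21, and for Ctcf, Ash2l and Smarca5 the pair lies on opposite sides of 0.

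The 2 members below 0 each had a second feature in the data. Ctcf, the zinc finger protein that organizes chromatin loops (chr8:105636474-105682922), read 9.93 in TiPSC 3, 10.08 and 9.78 in TiPSC 1 and 2, 11.42, 10.44 and 10.99 in ViPSC, and 10.80, 11.41 and 9.83 in ESC on its brightest probe set. That probe set varied 1.64 log2 units across the 9 arrays, and on it the 3 TiPSC arrays all lay below the 3 ViPSC arrays, while the ESC arrays spanned both. The second Ctcf probe set, at nearly the same mean level, read 10.62 in TiPSC 3, 10.28 and 10.29 in TiPSC 1 and 2, 10.28, 10.30 and 10.20 in ViPSC, and 10.32, 10.25 and 10.51 in ESC, a deviation of 0.27. The sign for Ctcf therefore depends on the probe set. A probe set of Smarca5 behaved like the brightest one of Ctcf, with 11.29 in ViPSC 1 and 11.35 in ESC 2 against 10.58 in TiPSC 3, whereas the brightest and the third Smarca5 probe sets deviated by 0.39 and 0.66 in TiPSC 3.

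The 3 redox members had a median of 0.42, with Prdx2, a peroxiredoxin, at 0.42. Nqo1, a quinone reductase controlled by the NRF2 pathway, read 6.96 in TiPSC 3, 6.23 and 6.03 in TiPSC 1 and 2, 7.17, 7.13 and 7.04 in ViPSC, and 7.08, 7.54 and 7.76 in ESC. TiPSC 1 and 2 were the lowest of the 9 arrays and TiPSC 3 was just below the ViPSC and ESC values. Set against TiPSC 1 and 2 alone, Nqo1 was 0.86 higher in TiPSC 3, the largest such difference among the members. On that base 40 of the 45 members were higher in TiPSC 3 than in both other TiPSC arrays, with a median difference of 0.41. The members that dropped most on that base were Prdx2 at 0.14, Hmox1 at 0.16, Gins3 at 0.21 and Polb, the polymerase of base excision repair, at 0.23. All of these were already high in TiPSC 1 and 2 on their brightest probe sets.

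Genes whose products work with the members, but which lie on other chromosomes, did not read higher as a group in TiPSC 3. Of 134 such genes listed from 23 complexes and pathways, 127 were measured and 124 lay outside chromosome 8. These 124 had a median of -0.03 in TiPSC 3, TiPSC 3 was the highest array for 15 of them (12.10%), and 9 were over 0.25. The 3 partners that do lie on chromosome 8, Gins4, Rbl2 and Cenpt, were at 0.36, 0.03 and 0.44, with Rbl2 at a mean level of only 4.62. Set against the median of its own partners, a member was higher in 29 of 31 cases, by a median of 0.47, with Ctcf and Neil3 the exceptions. It lay above all of its partners in 24 of the 31, though Gins2, Gins3, Farsa and Ikbkb had only 1 partner each. The members were listed for their place on the chromosome that read high in TiPSC 3, and these partners lie off it. In that array 96.68% of all expressed chromosome 8 genes were above 0. The counts against partners thus follow from how the genes were chosen, and nothing about members or complexes is read from them.

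**Figure D5:**
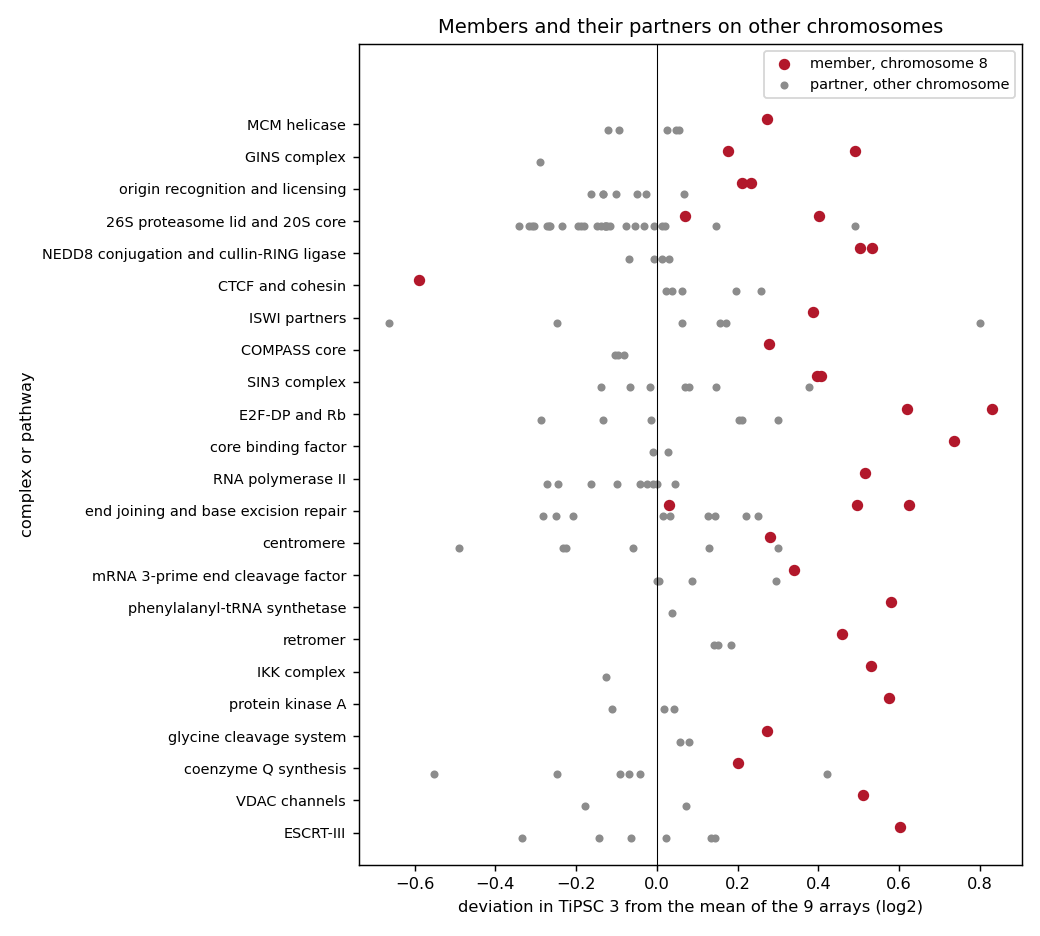
Deviation in TiPSC 3 (log2, horizontal axis) of members (red) and of their partners on other chromosomes (grey) in 23 complexes and pathways. Most red points lie right of all grey points of their row, which follows from how the genes were chosen. Ctcf, on its brightest probe set, lies left of them.

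Values for single complexes follow, as a description under the same limit. The 5 other MCM subunits ranged from -0.12 to 0.05 in TiPSC 3, against 0.27 for Mcm5. Gins2 and Gins3 were at 0.17 and 0.49, against -0.29 for the GINS partner on another chromosome. Orc6 and Cdt1 were at 0.23 and 0.21, against a median of -0.10 for 7 origin and licensing partners. All 13 replication partners together had a median of -0.09, and none was over 0.25. The 26 proteasome partners had a median of -0.13, and TiPSC 3 was the highest array for none of them. Among these, Psmd3, Psmd11, Psmd12, Psmb3 and Psmb6 lie on chromosome 11, whose median was -0.18 in TiPSC 3. The part of that chromosome in the proteasome median was not tested. Psmd7 was at 0.07 on its brightest probe set. Tfdp1 and E2f4 were at 0.83 and 0.62, and the 6 E2F and Rb family partners on other chromosomes had a median of 0.09. The deviations are not set against each other by a test, since the list used TiPSC 3.

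Group comparisons were tested with limma over all 18193 genes, with Benjamini-Hochberg adjusted p under 0.05. The 3 comparisons share arrays, and TiPSC 3 is part of the TiPSC group, so the fit without it is given first. That fit leaves out the TiPSC 3 values behind the list. It is not fully independent, since the other arrays set the mean that deviations were taken from. Without TiPSC 3, 4 of the 45 members rose in TiPSC against ViPSC, against 2.34% of all genes, and 1, Nqo1, fell, against 2.46%. At an unadjusted limma p under 0.05, 13 members were higher and 3 lower in that fit, against 11.5% and 8.81% of all genes. The median member difference was 0.15, and that of all genes 0.04. With TiPSC 3 included, as a description, the same 4 members were called higher and 0 lower, against 2.43% and 3.2% of all genes, with 19 higher and 2 lower at an unadjusted limma p under 0.05, against 11.4% and 9.6%.

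On their brightest probe sets the 4 genes separate TiPSC from ViPSC in TiPSC 1 and 2 as well, arrays that entered the rule only through the mean levels. Polb read 9.96, 9.77 and 9.74 in TiPSC 3, 1 and 2, against 9.30, 9.19 and 9.29 in ViPSC, with no overlap. The limma difference was 0.57 ± 0.08 (SE, adjusted p 0.00813), and 0.50 ± 0.08 without TiPSC 3 (adjusted p 0.0157). Prdx2 read 12.17, 12.08 and 12.03 in TiPSC 3, 1 and 2, against 11.44, 11.37 and 11.43 in ViPSC, a limma difference of 0.68 ± 0.10 (SE, adjusted p 0.00926). Without TiPSC 3 Prdx2 differed by 0.64 ± 0.12 (limma adjusted p 0.0255), so TiPSC 3 added little to it on this probe set. The second Prdx2 probe set, at a mean level of 9.45, read 10.15, 9.47 and 9.27 in TiPSC 3, 1 and 2, against 9.22, 9.21 and 9.35 in ViPSC. There TiPSC 2 lay below ViPSC 3, and TiPSC 3 was the highest array. Gins3 read 7.15, 7.12 and 6.83 in TiPSC 3, 1 and 2, against 6.38, 6.26 and 6.43 in ViPSC, a limma difference of 0.67 ± 0.12 (SE, adjusted p 0.0151). Calr read 12.34, 11.94 and 11.95 in TiPSC 3, 1 and 2, against 11.45, 11.58 and 11.51 in ViPSC, a limma difference of 0.56 ± 0.11 (SE, adjusted p 0.0248). Without TiPSC 3 the Gins3 difference was 0.61 ± 0.13 and the Calr difference 0.43 ± 0.09, at limma adjusted p of 0.0395 and 0.0317. On the brightest probe sets TiPSC and ViPSC did not overlap for any of the 4 genes. The Gins3 and Calr calls were lost when any 1 ViPSC array or TiPSC 1 was left out, with adjusted p up to 0.0777 for Gins3 and 0.111 for Calr, and the Prdx2 call when ViPSC 2 was left out (adjusted p 0.0542).

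Counted without a test, all 3 TiPSC arrays were above all 3 ViPSC arrays for 27 members, against 19.1% of all genes, and below them for 2, Ctcf and Nqo1, against 14.4%. Between TiPSC and ESC, which share the TiPSC arrays with that count, 16 members were above without overlap, against 9.73% of all genes, and 1, Nqo1, was below, against 6.11%. With TiPSC 1 and 2 alone against ViPSC, again 27 members were above all ViPSC arrays, against 28.2% of all genes, and 7 were below, against 19.9%. The 7 were Ctcf, Smarca5, Psmb10, Nqo1, Cotl1, Ash2l and Dnaja2.

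In TiPSC against ESC without TiPSC 3, limma called no member higher, against 0.379% of all genes, and 1 lower, against 0.374%. At an unadjusted limma p under 0.05, 8 members were higher and 2 lower in that fit, against 11.6% and 6.52% of all genes. The member that fell was Nqo1, by 1.33 ± 0.18 (SE, limma adjusted p 0.0299). With TiPSC 3 included, limma called Polb higher, against 0.291% of all genes, and none lower, against 0.341%. That call uses values behind the list and is no independent test. Polb averaged 9.83 ± 0.12 in TiPSC and 9.30 ± 0.02 in ESC (SD, n = 3 each), and its limma difference was 0.52 ± 0.08 (SE, adjusted p 0.0362) with TiPSC 3 and 0.46 without it (limma adjusted p 0.0513). With all 9 arrays the Nqo1 difference was -1.05 ± 0.24 (limma adjusted p 0.0929). In this fit the Nqo1 call thus turned on TiPSC 3 in both comparisons. Against ViPSC the Nqo1 difference was -0.98 ± 0.18 without TiPSC 3 (limma adjusted p 0.0271) and -0.71 ± 0.24 with it (limma adjusted p 0.126). The call did not turn on TiPSC 3 alone. With TiPSC 3 included, array weights called Nqo1 lower in both comparisons, and leaving out ESC 1 did so against ESC.

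ViPSC against ESC compares no TiPSC array, but TiPSC 3 still enters the shared spread. There limma called none of the 45 members, against 1.45% of all genes higher and 0.693% lower. Without TiPSC 3 it again called none, against 289 genes higher and 130 lower of all 18193. At an unadjusted limma p under 0.05 there were 3 members higher and 3 lower, against 9.51% and 7.64% of all genes, and the median member difference was -0.03. All 3 ViPSC arrays were above all ESC arrays for Psmb10, Ash2l and Coq9, against 11.3% of all genes, and below them for 7 members, against 10.9%. ESC 1 differed from ESC 2 and ESC 3 in several members. Ikbkb read 7.77 in ESC 1 and 7.01 and 6.92 in ESC 2 and 3, Coq9 8.43 in ESC 1 and 7.71 and 7.67 in ESC 2 and 3, and Ash2l 11.45 in ESC 1 and 10.98 and 11.03 in ESC 2 and 3. Without ESC 1, these 3 genes were called higher in ViPSC and Eif4ebp1 and Gcsh lower, against 8.31% and 5.54% of all genes.

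The member counts depended on how the spread was estimated, and the counts over all genes moved with them. The TiPSC fits that follow include TiPSC 3 and are a description. For TiPSC against ViPSC, a fit of only those 6 arrays called 11 members higher and 1 lower, against 6.82% and 7.59% of all genes. Array weights, by which unlike arrays count less, called 14 higher and 3 lower, against 10.9% and 8.92%. Leaving out ESC 1, which enters only the shared spread here, called 10 higher and 0 lower, against 5.4% and 5.56%. Polb, Prdx2, Gins3 and Calr were among the members called higher in each of these fits. For TiPSC against ESC, array weights called 8 members higher and 1 lower, against 10.1% and 5.93% of all genes. Without ESC 1 the counts were also 8 higher and 1 lower, against 10.3% and 6.36%, and with only the 6 arrays no member was called, against 0% and 0.0055%. For ViPSC against ESC, array weights called 4 members higher and 5 lower, against 11.5% and 7.49%.

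Among the 124 partners on other chromosomes, 7 rose and 3 fell in TiPSC against ViPSC, against 2.43% and 3.2% of all genes. The largest differences were 0.60 ± 0.11 for E2f3, an activating E2F, -0.56 ± 0.13 for Chmp6, of ESCRT-III, -0.51 ± 0.12 for Psmb3, a proteasome core subunit, 0.51 ± 0.09 for Vps26a, of retromer, 0.49 ± 0.10 for Cpsf6, the partner of Nudt21, and -0.48 ± 0.09 for Psmd11, a proteasome lid subunit (SE, limma adjusted p 0.0128 to 0.0454). Chmp6, Psmb3 and Psmd11, the 3 that fell, all lie on chromosome 11, whose median was higher in ViPSC, and the part of that chromosome in these calls was not tested.

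The median member was 0.55 log2 units higher in TiPSC than in TTF and 0.57 higher in ViPSC than in VM, against 0.07 and 0.04 for all genes. These sets are unlike in level: 41 of the 45 members were called expressed, against 7465 of all 18193 genes. The source cells had 1 array each, which allows no test, and VM also carried fibroblast and endothelial markers. In TiPSC against TTF, 12 members were at least 1 log2 unit higher in all 3 arrays, against 13.3% of all genes, and 1, Prkaca, was lower, against 13.1%. In ViPSC against VM, 15 were higher, against 16.7% of all genes, and 4 were lower, against 13.8%. The 4 were Prdx2, Got2, Prkaca and Coq9. The replication genes differed most: their median was 2.25 log2 units higher in TiPSC than in TTF and 2.23 higher in ViPSC than in VM. Cdt1 averaged 12.60 ± 0.09 in TiPSC (SD, n = 3), against 9.52 in TTF, and Mcm5 averaged 12.35 ± 0.16 in TiPSC, against 9.44 in TTF. Coq9 went the other way in the heart cells, at 8.49 ± 0.04 in ViPSC (SD, n = 3) against 11.33 in VM.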

How the data were processed

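The authors deposited log2 values from RMA, per the submitters' processing notes, as 1 table of 45101 probe sets. RMA normalizes between arrays, and the version and annotation it used are not given in the sources used here. Control probe sets (64) and those with several symbols (932) or none (9160) were left out. Chromosomes came from RefSeq (GRCm38.p6), matched by Entrez identifier.

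Deviations were taken after subtracting each array's median over expressed autosomal genes outside chromosome 8, a shift of at most 0.06. Group differences used limma 3.58.1 in R 4.3.3 with 3 group means, a shared spread over 9 arrays and eBayes, on uncentred values. The fit was tested on simulated data. Precision is limited by 3 arrays a group.

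The members, role groups and partner lists were chosen with earlier results of these data known. Values in every array were given for the 10 members highest and the 6 lowest in TiPSC 3 and for members that a comparison turned on. Partners were named where limma called them, up to 6. Alternatives covered probe set choice, filters, centring, baseline, arrays in the fit, replicate block, array weights and leaving out each array.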

Additional observations from a re-analysis of the deposited data

How the results depend on the processing

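The median member deviation in TiPSC 3 was 0.39 to 0.48 with the mean of a gene's probe sets, without centring, with other baselines or with brighter members only. On the second probe set of the 29 members that have more than 1 it was 0.37, and TiPSC 3 was the highest array for 18 of those 29. The chromosome 8 median was 0.44 to 0.47 at other limits for an expressed gene. Counts of members called by limma moved most. For TiPSC against ViPSC, 4 in the report, they were 9 with genes at a mean of at least 7 only, 12 with only the 6 arrays compared, 17 with array weights and 1 to 10 when single arrays were left out. Without ESC 1 the count was 10, without ESC 3 it was 7, without ViPSC 1, ViPSC 3 or TiPSC 1 it was 2, and without ViPSC 2 it was 1. For TiPSC against ESC, 1 in the report, there were 0 with the mean of probe sets, with centring or with only the 6 arrays, 9 with array weights, and 0 to 9 when single arrays were left out (9 without ESC 1). For ViPSC against ESC, 0 in the report, there were 1 with the mean of probe sets, 9 with array weights and 0 to 5 when single arrays were left out (5 without ESC 1). The cause was not tested.

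Over all genes, array weights called 1991 higher and 1622 lower in TiPSC against ViPSC, compared with 442 and 582 in the report, 1834 and 1079 in TiPSC against ESC, compared with 53 and 62, and 2091 and 1362 in ViPSC against ESC, compared with 264 and 126. Prdx2 missed the threshold on the mean of its probe sets (limma adjusted p 0.0644), and Polb in TiPSC against ESC missed it in 12 alternatives, at limma adjusted p of 0.0513 to 0.215. Replicate numbers did not pair the arrays (correlations of deviations -0.13 to 0.12). With the replicate block, 3 members were called in TiPSC against ViPSC, 0 in TiPSC against ESC, and Calr was lost (limma adjusted p 0.0565). No difference changed direction in a called result. Arrays carry no detection calls here, so the 4 members under a mean of 7 (E2f4, Gins3, Neil3 and Nqo1) rest on weak signal.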
